A study of Caenorhabditis elegans with 2 samples.

Results

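The nuclear genes of the mitochondrial respiratory chain and of ATP synthase were examined for promoter peaks of NHR-71 in first-stage (L1) larvae of Caenorhabditis elegans. NHR-71 belongs to the nuclear hormone receptors, a family of transcription factors that is large in nematodes. Members were the nuclear protein-coding genes whose names carry the prefixes of respiratory complex subunits (nuo-, nduo-, ndua-, ndub-, nduc-, nduf-, ndus-, nduv-, ndab-, sdha-, sdhb-, sdhd-, ucr-, cyc-, cox- and atp-), together with gas-1, mev-1 and isp-1. This gave 68 of the 19973 nuclear protein-coding genes of the WBcel235 annotation. The names placed 34 of them in complex I, 5 in complex II, 7 in complex III, 2 as cytochrome c, 7 as subunits of complex IV, 8 as assembly factors of complex IV and 5 in ATP synthase. Genes of the mitochondrial genome, and nuclear subunit genes with unrelated names, lay outside the rule.

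Chromatin immunoprecipitation followed by sequencing (ChIP-seq) was done with an antibody to GFP on whole hermaphrodites of strain OP480, in 1 group of 2 biological replicates. This strain carries the integrated transgene wgIs480, which expresses NHR-71 with a GFP-FLAG tag at its C-terminal end, in an unc-119(tm4063) background. Larvae were starved after bleaching and collected 6 h after synchronization. Whole animals were used, so a peak cannot be placed in a tissue, and the files hold no group without the tag. The authors deposited a list of 30000 ranked positions per replicate and 8540 peaks that passed a test of reproducibility (irreproducible discovery rate, IDR). Each peak has a signal value on the authors' own scale, which orders the peaks of 1 list. Signals in the IDR set ranged from 84.1 to 6143 with a median of 194. Read depth is unknown, since the lists hold no read counts.

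The respiratory chain passes electrons from NADH (complex I) and succinate (complex II) through ubiquinone to complex III, then through cytochrome c to complex IV, where oxygen is reduced. Protons pumped on the way drive ATP synthase, and the subunits come partly from the mitochondrial and mostly from the nuclear genome. In C. elegans, mutants of gas-1, mev-1, isp-1 and nuo-6 are classical models of altered stress resistance and lifespan. Many worm genes are transcribed in operons, in which a promoter ahead of the first gene serves genes further downstream.

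The sequence under the strongest peaks is shown first, to let the values be read beside the DNA. For each complex a member of high signal was taken from the RefSeq copy of WBcel235 (atp-2, ucr-2.2 and the others are the highest of their complex apart from atp-1 and cyc-1), with the 100 bases centred on its summit, written 5′ to 3′ on the strand of the gene. Capitals mark matches, on either strand, to any of 8 short words searched for: the nuclear receptor core word AGGTCA, the word TGATAA of GATA factors, the forkhead word GTAAACA, the E-box word CACGTG, the box known as CCAAT, the short repeat GAGAG, the thymine run TTTTTTTT and the splice acceptor word TTTCAG. None of these words contains another.
cox-5A, ce11 chrIII:12905149-12905248, plus strand: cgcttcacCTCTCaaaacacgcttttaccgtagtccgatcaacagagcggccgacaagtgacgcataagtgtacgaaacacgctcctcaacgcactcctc
nduc-2, ce11 chrIII:2785997-2786096, plus strand: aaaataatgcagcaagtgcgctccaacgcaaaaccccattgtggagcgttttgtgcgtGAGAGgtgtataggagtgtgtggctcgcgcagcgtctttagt
sdha-1, ce11 chrX:8546187-8546286, minus strand: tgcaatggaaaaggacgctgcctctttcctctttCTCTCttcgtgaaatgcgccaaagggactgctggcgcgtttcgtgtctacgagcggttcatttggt
atp-2, ce11 chrIII:5228125-5228224, plus strand: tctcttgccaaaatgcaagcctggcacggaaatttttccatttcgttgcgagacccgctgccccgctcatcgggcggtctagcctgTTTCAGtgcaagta
ucr-2.2, ce11 chrX:15173638-15173737, plus strand: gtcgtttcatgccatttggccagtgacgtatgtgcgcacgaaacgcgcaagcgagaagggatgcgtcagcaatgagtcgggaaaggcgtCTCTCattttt
cox-14, ce11 chrIII:10218724-10218823, plus strand: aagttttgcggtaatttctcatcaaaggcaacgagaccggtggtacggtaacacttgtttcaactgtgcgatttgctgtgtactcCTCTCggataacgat
cyc-2.1, ce11 chrIV:4748790-4748889, minus strand: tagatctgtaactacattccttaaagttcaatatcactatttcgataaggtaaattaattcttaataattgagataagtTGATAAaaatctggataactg

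In the sequence of cox-5A, the peak of highest signal among the members, the only match was the repeat word, read on the reverse strand. The repeat word was also the only match in nduc-2, sdha-1, ucr-2.2 and cox-14, a splice acceptor word was the only match in atp-2, and a GATA word the only match in cyc-2.1. The G and C content of these windows was 53% for cox-5A, 51% for nduc-2, 52% for sdha-1, 54% for atp-2, 53% for ucr-2.2 and 45% for cox-14, and 25% for cyc-2.1. The cyc-2.1 summit is also the only summit of a member that lay downstream of the annotated gene start.

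Of the 68 genes, 47 had an IDR summit in the promoter window (69.1%; 95% exact interval 56.7% to 79.8%, for counting of genes only). The window started 1000 bp before the annotated start of a gene and ended 200 bp inside it. Over all 19973 genes the share was 20.8%. In lists of each replicate cut to its 8540 positions of highest signal, 44 members had a promoter peak in replicate 1 and 48 in replicate 2, or 67.6% ± 4.16 (SD, n = 2). The shares over all genes in these lists were 21.2% and 21.1%. No test was made of the members against other genes, because the members were chosen with results of these data known. The 47 peaks had 47 different summits.

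Peaks at the members were mostly stronger than the typical promoter peak. Their median signal was 543 (quartiles 239 and 878), against 275 (quartiles 151 and 548) over all 4152 genes with a promoter peak. Of the 47, 32 lay above that overall median. The members also spanned a wide range, from 92.7 at ndua-13 to 3283 at cox-5A, and cox-5A was the only member among the 100 strongest IDR peaks.

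**Figure D1:**
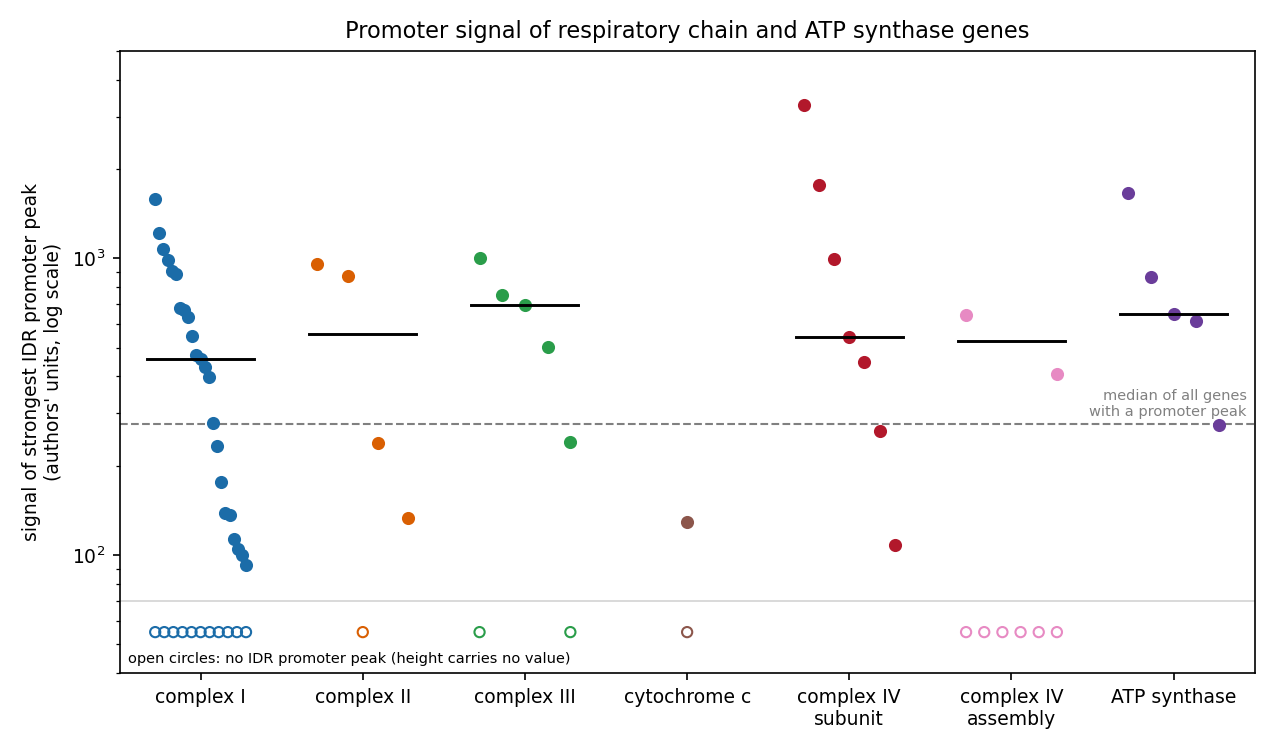
Signal of the strongest IDR promoter peak (authors' units, log scale) for each gene, by complex; filled points are genes with a peak, black lines are medians, the dashed line is the median of all 4152 genes with a promoter peak, and open circles are genes with none. Subunits of complex IV and of ATP synthase have no open circle, and assembly factors of complex IV have 6 of 8.

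The complexes differed in how many genes carried a promoter peak. All 7 complex IV subunit genes and all 5 ATP synthase genes had one, as did 4 of 5 complex II genes (80%), 5 of 7 complex III genes (71.4%) and 23 of 34 complex I genes (67.6%). Among the assembly factors of complex IV it was 2 of 8 (25%), close to the 20.8% of all genes, and for cytochrome c it was 1 of 2. The exact intervals are wide at these sizes. They ran from 59.0% to 100% for complex IV subunits, from 3.19% to 65.1% for assembly factors, and from 49.5% to 82.6% for complex I, and the differences between complexes were not tested.

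The replicate lists differed for some complexes. ATP synthase genes were at 100% and assembly factors at 25% in both replicate lists, and complex II was at 80% in both. Complex IV subunits were at 100% in replicate 1 and 85.7% in replicate 2. Complex III had 85.7% and 71.4%, and complex I had 58.8% and 73.5%, so the order of these complexes changed between replicates and they cannot be ranked against each other. Cytochrome c had no gene called in replicate 1 and 1 of 2 in replicate 2.

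**Figure D2:**
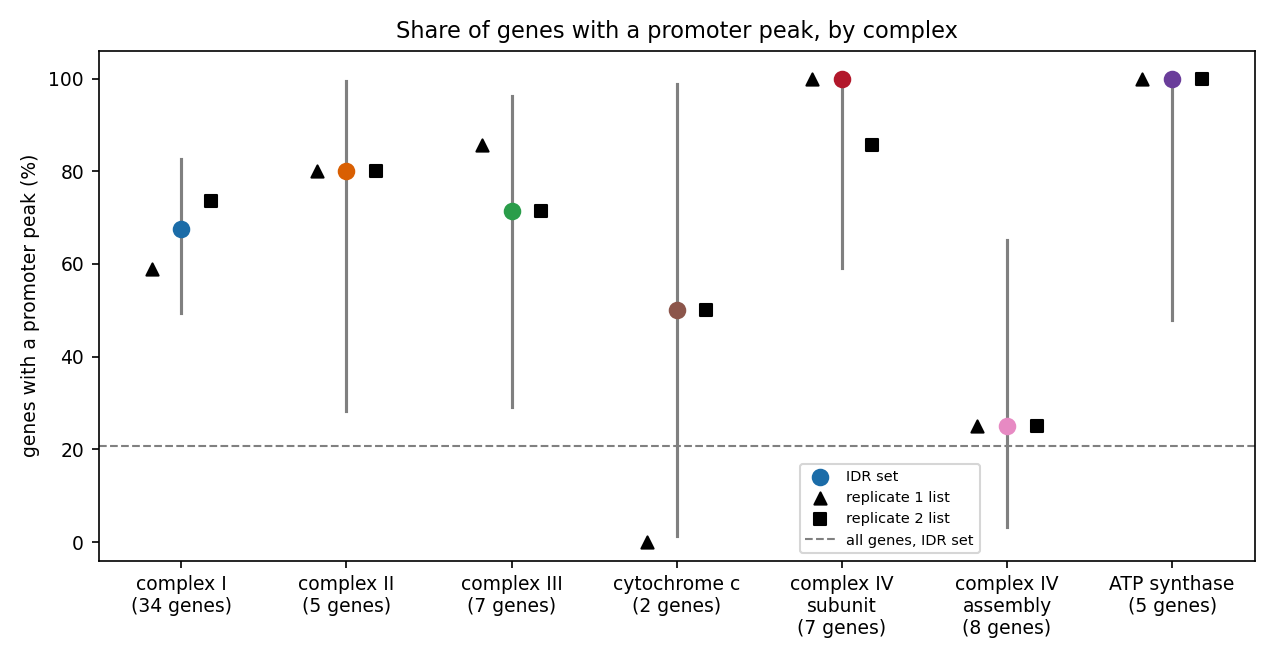
Share of genes with a promoter peak by complex (percent); coloured points are the IDR set with 95% exact intervals (grey lines), triangles and squares are the lists of replicate 1 and replicate 2 cut to 8540 positions, and the dashed line is the 20.8% of all genes. Complex IV assembly factors sit near the dashed line in all lists, and the ATP synthase genes at 100%.

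Complex IV, cytochrome c oxidase, held the strongest peak of all members. At cox-5A, which encodes a nuclear subunit that surrounds the catalytic core, the IDR signal was 3283 (rank 24), and the replicates had 1832 (rank 22) and 1451 (rank 31). The peak lay on chromosome III from 12904970 to 12905433, with its summit 293 bp upstream of the start, outside annotated genes and in no window of another gene. The subunit gene cox-5B followed with 1758 (892 and 868 in replicates 1 and 2), with a summit 30 bp upstream of its start. Both were above the other complex IV genes named by the rule in each replicate.

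The subunit gene cox-6A had 992 (551 and 437 in the replicates), from a summit at 770 bp from its start and a window that held 2 summits. That of cox-6C reached 543 (276 and 266), that of cox-4 449 (231 and 216), and that of cox-6B 261 (136 and 124). The cox-6B summit lay 128 bp from the start of slc-30A9, and at -718 bp from that of cox-6B (negative is upstream). The weakest, cox-7C, had 108 (64.1 and 42.1), passed the limit of replicate 1 but not that of replicate 2, and lay nearer to the start of F26E4.4. With windows from 500 bp upstream, 5 of the 7 subunit genes kept a summit.

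The assembly factors of complex IV, which insert haem and copper and help the core subunits into the membrane, had fewer peaks than the subunits, with overlapping intervals and no test. Among those named by the rule, cox-14 (643; 360 and 282 in the replicates) and cox-10, the haem O synthase gene (408; 223 and 183), had a promoter peak. Assembly genes with other names had one in 3 of 8 cases, among them sco-1 with 1753, close to the 1758 of cox-5B. The cox-14 summit was nearer to the start of rde-4, at 127 bp, than to its own, at 169 bp. None was found in the windows of cox-11, cox-15, cox-16, cox-17, cox-18 and cox-19. Of these, cox-11 had a weak position in the pooled list (signal 23.7, below the lowest IDR signal of 84.1) and the other 5 had none.

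ATP synthase genes all had a promoter peak in every list used. The gene of the catalytic-head subunit alpha, atp-1, had an IDR signal of 1662 (937 and 728 in the replicates), with a summit 6 bp upstream of its start. Subunit beta, atp-2, had 867 (442 and 432). The stalk subunit genes atp-5 and atp-3 had 650 (352 and 298) and 615 (322 and 298), and atp-4 had 274 (159 and 116). The atp-1 value was the highest and atp-4 the lowest in both replicates, while the order of atp-5 and atp-3 turned between replicates. The atp-5 summit lay 36 bp from the start of lmtr-3, nearer than to its own, and the atp-4 summit inside the neighbouring gene alh-4.

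In complex I, NADH dehydrogenase, signals covered the whole range from 92.7 to 1578 (median 457). The highest values were at genes of accessory subunits, which surround the catalytic core. These were nduc-2 with 1578 (794 and 788 in replicates 1 and 2), ndua-8 with 1219 (679 and 546) and ndub-8 with 1072 (594 and 476). The fourth was nduf-2.2 with 989 (508 and 483), which encodes a core subunit near the ubiquinone site. All 4 were in the upper part of both replicate lists, at rank 563 or better.

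The peaks of 3 of these 4 lay nearer to another gene. The nduc-2 summit, at -806 bp, was 98 bp from the start of Y71H2AM.20 and inside the annotated cox-6B gene. A second, weaker summit lay in the same window, and with windows from 500 bp upstream, or with each summit given only to the nearest start, the nduc-2 value was the 143 of that summit instead of 1578. The ndua-8 summit was 131 bp from the start of rbc-2. The nduf-2.2 summit, at -788 bp, was 655 bp from the start of dlc-1. The ndub-8 summit was nearest to its own start, at 193 bp, and lay in the window of cup-14 too.

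The core subunits, which carry the flavin, the iron-sulfur clusters and the ubiquinone site, had a promoter peak in 7 of 8 cases (87.5%). Accessory subunits had one in 16 of 26 cases (61.5%). The exact intervals overlap, from 47.3% to 99.7% for core and from 40.6% to 79.8% for accessory subunits. Over all genes the share was 20.8%, and the difference between core and accessory subunits was not tested. This division was made after the values were seen, and the replicate lists gave 75% and 87.5% for core and 53.8% and 69.2% for accessory subunits. Medians of those with a peak were 457 and 488, with overlapping ranges. Among the core genes, nuo-1, the NADH-binding subunit, had 632 (317 and 318 in the replicates), ndus-8 had 470 (256 and 212), nuo-2 had 457 (250 and 216) and nduf-7 had 397 (177 and 221). The gas-1 peak was weak, with 113 (59.5 and 55.2), and nduv-2 had 105 (43.1 and 65.3), the first value below the limit of 46.6 at position 8540 of replicate 1.

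Further accessory genes with a peak were nduf-11 (906), ndab-2 (882), ndua-2 (679), nduv-3 (671), nduf-6 (548), ndua-5 (429), ndua-1 (279), ndua-7 (233), ndub-7 (176), ndub-3 (139), nuo-6 (136), ndub-5 (99.8) and ndua-13 (92.7), all as IDR signals. The ndab-2 summit, at -900 bp, lay 264 bp from the start of the ribosomal protein gene rps-14 and in the window of rpl-36 as well. The last 2, ndub-5 and ndua-13, did not reach the limit of replicate 1. No IDR promoter peak was found at nuo-5, the core gene without one, or at nuo-3, nuo-4, ndab-1, ndua-12, ndub-2, ndub-6, ndub-10, ndub-11, nduf-5 and nduf-9. Of these, ndab-1 and nduf-9 were called in replicate 2 alone, with signals of 69.7 and 67.0.

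Complex II, succinate dehydrogenase, is also an enzyme of the citric acid cycle. Its flavoprotein gene sdha-1 had 954 (477 in both replicates), with a summit 215 bp upstream on the X chromosome. The membrane anchor gene mev-1 had 874 (485 and 385), the second anchor gene sdhd-1 had 238 (120 and 114), and the iron-sulfur gene sdhb-1 had 133 (60.4 and 70.4). Sorted by these values, the genes formed a higher pair and a lower pair, and the same pairs held in each replicate. The pairing was read from these same values and was not tested.

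In complex III, the cytochrome bc1 complex, cyc-1, the gene of cytochrome c1, had the highest signal of 1005 (561 and 449). The core protein genes ucr-2.2, ucr-2.1 and ucr-1 had 754 (427 and 327), 694 (358 and 340) and 502 (281 and 223). The Rieske iron-sulfur gene isp-1 had 240 (118 and 125), and its summit was nearer to the start of islo-1, at 76 bp. The order of ucr-2.2 and ucr-2.1 turned between replicates, while cyc-1 was first and isp-1 last in both. No IDR summit lay in the windows of ucr-2.3 and ucr-11, although ucr-11 was called in replicate 1 (signal 48.9) and had 78.5 in the pooled list, just under the lowest IDR signal of 84.1. Cytochrome c itself, the mobile carrier, had only the weak peak of cyc-2.1 (129; 42.0 and 73.2), inside the gene and below the limit of replicate 1.

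Paralogues within the list differed in signal, except that ucr-2.1 and ucr-2.2 were close (694 and 754) and changed order between replicates. The pair of genes for the same core subunit of complex I, nduf-2.2 and gas-1, had 989 and 113. This order rests on the distant nduf-2.2 summit: with windows from 500 bp upstream, or with each summit given only to the nearest start, nduf-2.2 had no peak and gas-1 kept 113. Of the sdha pair, sdha-1 had 954 and sdha-2 had no position at all in its window in the pooled list. Of the ucr-2 genes, ucr-2.1 and ucr-2.2 had a peak, that of ucr-2.1 being nearer to the start of nmat-1, and ucr-2.3 had no position in any list, and of the cytochrome c pair, cyc-2.1 had a weak peak and cyc-2.2 no position in any list. These are values side by side, with no test.

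The replicates ranked the 47 peaks alike. Spearman's rho between their signals was 0.974 over the 47 genes, as a description, since the genes share the same libraries. The 47 peaks had also passed the IDR test on these same replicates, which itself selects for agreement. The rho and the count called in both lists therefore do not measure reproducibility independently. On the log2 scale, replicate 2 over replicate 1 was -0.13 in the median (SD 0.32 over genes), from -0.60 at cox-7C up to 0.80 at cyc-2.1. Both extremes belong to weak peaks. In all, 42 of the 47 were called in both replicate lists, and the 5 others were nduv-2, ndub-5, ndua-13, cyc-2.1 and cox-7C.

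**Figure D3:**
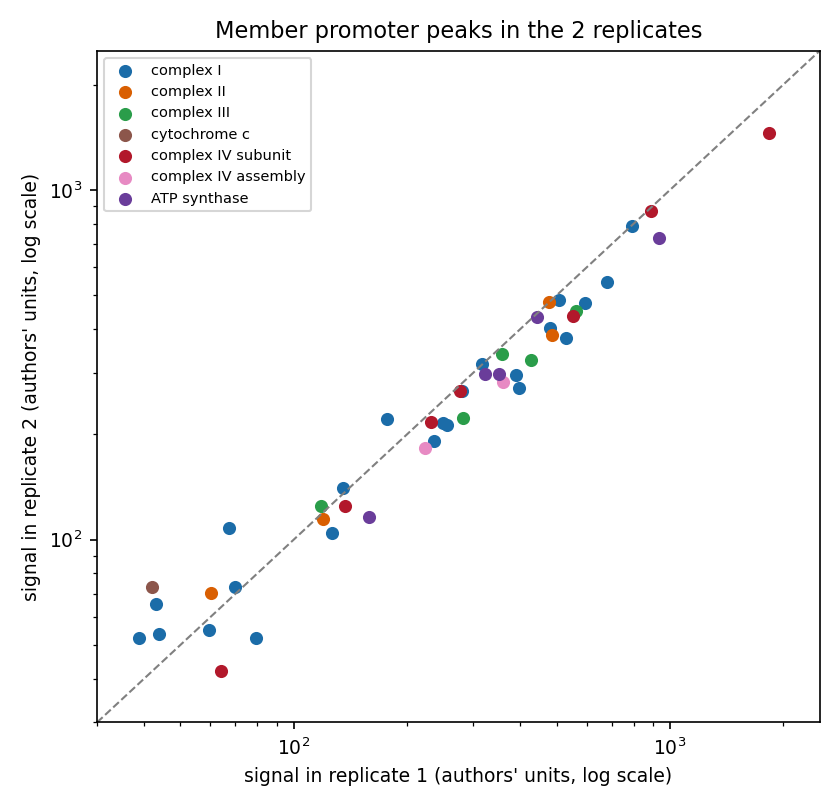
Signal of the 47 member peaks in replicate 1 (x axis) and replicate 2 (y axis), in the authors' units on log scales, coloured by complex; the dashed line marks equal values. Points above about 100 lie close to the line, most of them slightly below it, and the scatter is widest among the weak peaks.

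Summits sat a short way upstream of the annotated starts. The median distance was -243 bp (quartiles -310 and -145) for the members and -234 bp (quartiles -457 and -120) for all genes with a promoter peak. Of the 47, 46 lay upstream and 41 of these within 500 bp. The farther ones were nduc-2, nduf-2.2, ndab-2, cox-6A and cox-6B, from -900 to -718 bp. Annotated starts in worms can be sites of trans-splicing and not of transcription, which can affect distances for members and other genes. Whether it affects both to the same degree was not tested.

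**Figure D4:**
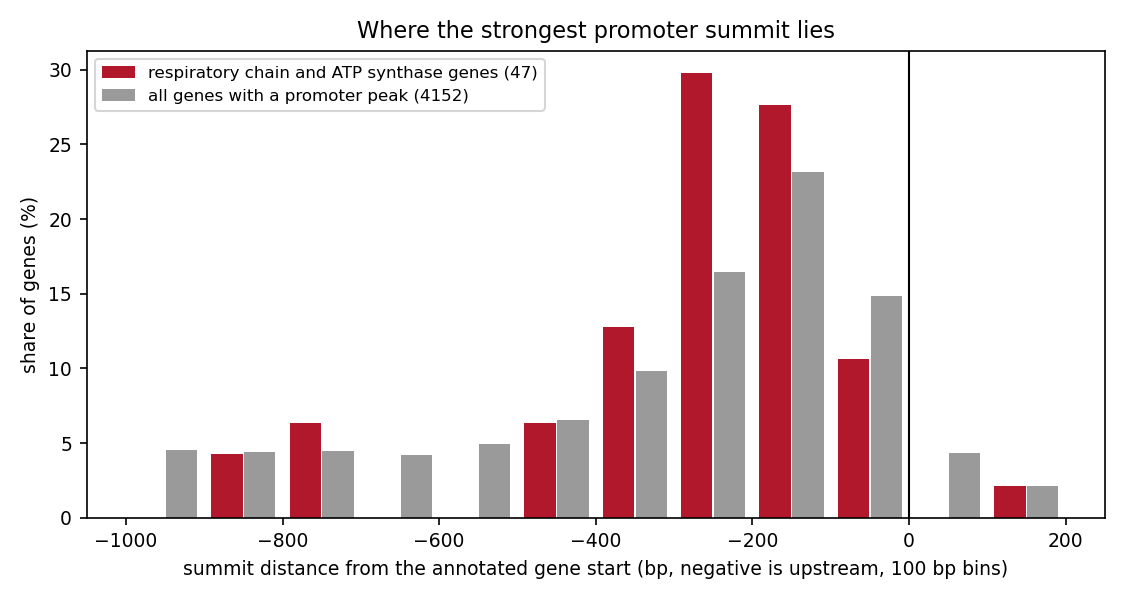
Distance of the strongest promoter summit from the annotated gene start (bp, negative is upstream, bins of 100 bp) as a share of genes (percent), for the 47 members with a peak and all 4152 genes with one. Both distributions peak between -300 and -100 bp, and 1 member, cyc-2.1, lies downstream of the start.

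The neighbours of the genes were read from the annotation. A protein-coding neighbour in head-to-head orientation, with its start within 1000 bp, was found at 34 of the 68 genes (50%) and at 18.2% of all genes. A neighbour upstream on the same strand that ended within 500 bp, the spacing in which operon genes are found, was present at 22 members (32.4%) and at 19.7% of all genes. With a limit of 200 bp the shares were 22.1% and 10.8%, and with a limit of 1000 bp they were nearly equal, at 33.8% and 30.2%. No test was made of these shares.

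Among head-to-head members 28 of 34 had a promoter peak (82.4%; exact interval 65.5% to 93.2%), against 38.9% of all head-to-head genes. Members of neither class had one in 9 of 12 cases (75%; 42.8% to 94.5%), against 17.4% of all genes of neither class. The exact intervals of the head-to-head members and of these members overlap, so their shares cannot be ranked. For the head-to-head members, all 28 summits also lay in the window of another gene. The definition of this class largely sets that, since windows of head-to-head starts within 1000 bp overlap. In 13 of these 28 the other start was nearer. Over all 47 members, 31 peaks (66.0%) were shared with the window of another gene, against 41.4% over all genes with a peak. The 28 head-to-head peaks are among these 31, so this share also follows the larger share of head-to-head genes among members. Of the 47, 16 were nearer to another start. Which gene of such a pair a peak belongs to cannot be told from the lists. When each summit was given only to the nearest start, 32 members kept one (47.1%, against 16.5% of all genes). Complex I then kept 14 of 34, complex II 4 of 5 and complex III 3 of 7. Complex IV subunits kept 5 of 7, ATP synthase 4 of 5 and cytochrome c 1 of 2. Assembly factors of complex IV kept 1 of 8 (12.5%, against the 16.5% of all genes).

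Members behind a close neighbour on the same strand had a peak in their own window in 10 of 22 cases (45.5%, against 14.6% over all such genes). Among the 10, the ndab-2 peak is also that of rpl-36, the first gene of its run. Of the 12 members without a peak in their own window, 11 belonged to a run of closely spaced genes whose first gene had an IDR promoter peak (91.7%). Over all such genes without a peak this was 34.4%. The exception was ndub-2, whose run starts with ooc-5. Distances to the neighbour had a median of 103 bp (quartiles 102 and 113) in these 12, and 166 bp (100 and 324) over all such genes without a peak. With a peak of its own or at the first gene of its run counted, 58 of 68 members had one (85.3%), against 26.6% of all genes. For the 11 members added in this way, the summit lay from 1248 bp (ndub-10) to 7047 bp (cox-19) from the member's start. That the genes of a run share a transcript was not tested, since the annotation used holds no operons.

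Inside complex IV the arrangement differed between assembly factors and subunits in these counts. Of the 8 assembly factor genes, 5 lay behind a close neighbour on the same strand, none of the 5 had a peak of its own, and all 5 had one at the first gene of the run. None of the 7 subunit genes lay behind such a neighbour, although cox-6B is itself the first gene of the run that holds nduc-2. In the annotation cox-6B spans 2699663 to 2786859 on chromosome III, and its summit lies 87907 bp from the nduc-2 start. The first genes and their signals were lin-54 for cox-11 (3041; 1657 and 1395 in the replicates), Y55F3AR.2 for cox-18 (1863; 1078 and 787), rpn-9 for cox-15 (673; 353 and 321), ubc-20 for cox-17 (152; 64.9 and 92.9) and hpo-35 for cox-19 (131; 65.2 and 59.3). The gene next ahead of cox-15 is cchl-1, for cytochrome c haem lyase.

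The same was seen for other members without a peak. The complex I gene nuo-4 followed a run that starts with syf-2 (1098; 615 and 487), ndua-12 followed ubxn-2 (723; 419 and 298), nuo-5 followed Y45G12B.2 (353; 174 and 172) and ndub-10 followed exos-3 (293; 169 and 123). In complex III, ucr-11 followed dad-1 (1139; 616 and 529). The complex II gene sdha-2 followed ndua-13, itself a complex I gene (92.7; 38.8 and 52.1). Ahead of cyc-2.1 lies the ribosomal protein gene rpl-20, whose peak (4328; 2453 and 1888) had its summit 1053 bp from the cyc-2.1 start, just outside the window. With windows from 2000 bp upstream the strongest signal of cyc-2.1 was therefore 4328 instead of 129.

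**Figure D5:**
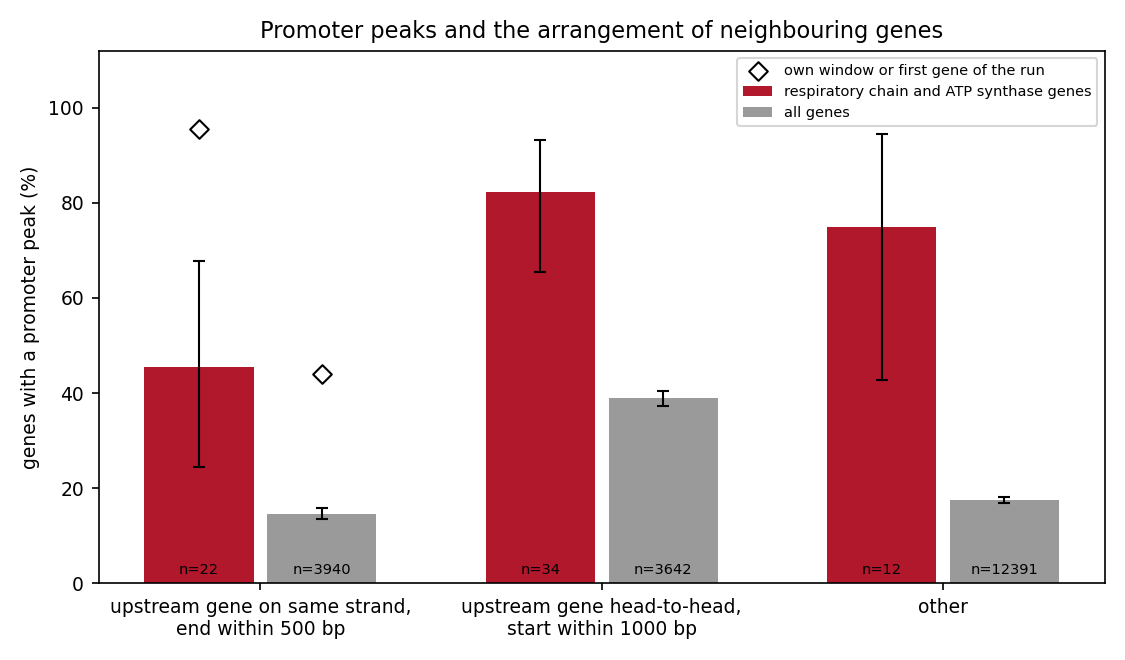
Share of genes with a promoter peak (percent, bars with 95% exact intervals) for members and all genes, by the kind of upstream neighbour; diamonds add genes whose run of close same-strand neighbours starts with a gene that has a peak. In the first class the bar and the diamond are at 45.5% and 95.5% for the members and at 14.6% and 43.9% for all genes.

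The remaining 10 members had neither a peak of their own nor one at the first gene of a run. They were ndab-1, ndub-2, ndub-6, ndub-11, nduf-5, nduf-9, nuo-3, ucr-2.3, cyc-2.2 and cox-16. The IDR summit nearest to cox-16 was 31005 bp from its start, that of nduf-9 23260 bp and that of cyc-2.2 12899 bp, while ndub-2 had one 1285 bp downstream of its start (103). Among all 21 members without an IDR peak, 15 had no position in the window in the full pooled list of 30000, where 53 of 68 members (77.9%) and 36.9% of all genes had one.

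The count moved with the call rule, and so did the share over all genes. With windows from 500 bp upstream 43 members had a peak (63.2%; all genes 16.6%), and with windows from 2000 bp upstream 50 did (73.5%; all genes 26.8%). Among the 4270 IDR peaks of higher signal it was 37 (54.4%; all genes 13.4%). Counting any overlap of the peak interval with the window gave 47 (69.1%; all genes 22.3%).

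By chromosome, members had a peak in 4 of 4 cases on X, 9 of 11 on II, 13 of 18 on I, 12 of 17 on III, 4 of 7 on V and 5 of 11 on IV. The shares over all genes ran from 15.9% on V to 28.5% on III.

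DNA under the member summits was rich in G and C, with a median of 49% over 100 bp. The median was 43% over all IDR summits and 33% over windows of the same length centred 200 bp upstream of all gene starts. AGGTCA was found in none of the 47 windows on either strand, which allows a share of up to 7.55% (exact interval), and in 3.78% of all IDR summits and 2.64% of the upstream windows. CACGTG was also in none, against 6.30% of IDR summits and 1.52% of upstream windows, and TTTTTTTT in none, against 4.92% and 12.8%. 

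GAGAG was in 16 of 47 windows (34%), close to the 38.2% of all IDR summits and above the 14.9% of upstream windows. CCAAT was in 5 (10.6%, against 17% and 18.2%), TTTCAG in 5 (10.6%, against 7.41% and 16.7%), TGATAA in 2 (4.26%, against 10.7% and 10.9%) and GTAAACA in 1 (2.13%, against 2.08% and 1.63%). In windows of 200 bp TTTTTTTT was in 10 member windows (21.3%), now above the 13.5% of IDR summits and below the 24.1% of upstream windows. In these windows TTTCAG was in 20 (42.6%, against 17.4% of IDR summits and 30.2% of upstream windows). A match to a word is a description of the letters and not a site.

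Genes of the same pathway outside the naming rule were read from a list of 39, of which 37 were found in the annotation. A promoter peak was present at 18 of these 37 (48.6%, against 20.8% of all genes). ATP synthase genes with other names had one in 8 of 9 cases. They included asb-2 with 901 (505 and 402 in the replicates), asg-2 with 736 (411 and 322), R04F11.2 with 515 (261 and 250), and mai-2, an inhibitor of the enzyme, with 437 (235 and 205). The exception was asb-1, known as the germline form of the subunit encoded by asb-2. The asb-1 gene lay behind a close neighbour on the same strand. The asg-1 peak had 140 (67.5 and 69.2).

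Other steps around the chain were lower or mixed. The ADP/ATP carrier gene ant-1.1 had 1686 (952 and 737), and ant-1.2, ant-1.3 and ant-1.4 had no peak. Of the further complex IV assembly genes, sco-1, a copper chaperone gene, had 1753 (993 and 760), coa-3 had 742 and coa-4 had 324. Coenzyme Q synthesis genes had one in 3 of 8 cases (37.5%, against 20.8% of all genes), all weak, with coq-5 at 219, coq-1 at 136 and coq-4 at 109. Those without one, clk-1, coq-2, coq-3, coq-6 and coq-8, all lay behind a close neighbour on the same strand, as did coq-4. Peaks at the first genes of such runs were not counted for these genes outside the rule. Electron entry genes had one in 2 of 3 cases, let-721 (291) and sqrd-1 (120). Genes listed for complex I under other names, not sorted into subunits and assembly factors, had one in 1 of 3 cases, nuaf-1 (396). The genes cchl-1 and bcs-1, also behind a close neighbour on the same strand, had none.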

How the data were processed

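The authors deposited peak lists in the narrowPeak format on the ce11 and ce10 builds, in which the signal value of each peak is theirs and its scale is not stated. Per the submitters' file list, each list was made from immunoprecipitated reads set against a control, for each replicate and for both pooled, and the IDR set derives from these lists. The IDR threshold, aligner and peak caller were not given in the sources used. Neither the ce10 lists nor the control were analysed here.

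Coordinates are ce11 and 1-based. Genes were from Ensembl release 115 (WBcel235) and sequence from the RefSeq copy of that assembly. A summit is the peak start plus its offset (its last base where the offset equals the width). A gene was called when an IDR summit lay in its window, and its strongest peak was kept. Replicate values are those of the replicate interval that holds the IDR summit, on each list's own scale. An upstream neighbour is the protein-coding gene whose facing edge is nearest to the start, leaving out genes that contain the whole gene. A run was followed through same-strand neighbours within 500 bp to its first gene. Intervals are exact (Clopper-Pearson, 95%) and cover counting of genes or windows only. With 1 group there was no contrast between conditions and no p-value was computed. The number of replicates, 2, limits the precision.

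Members, lists and words were chosen with earlier results of these data known. Values were given in full for the 4 members of highest signal in complex I, complex IV and ATP synthase, for every member with a peak of complexes II and III and cytochrome c, for paralogues, and for gas-1, mev-1, isp-1, nuo-1 and cox-5A. Other genes are named with values to account for all members. Alternatives were windows from 500 and 2000 bp upstream, each replicate list alone, the 4270 IDR peaks of higher signal, the nearest start only, interval overlap, neighbour distances of 200 and 1000 bp, and word windows of 200 bp; the full pooled list was added after seeing the data. The calls were tested on simulated data over 19973 genes, with all of 200 planted genes recovered. Summits were planted inside the windows that are read, so this checks the code and not the assignment of peaks to genes. Scripts ran in Python 3.11.15 with SciPy 1.17.1, pandas 2.3.3 and NumPy 2.4.6, and figures were drawn with Matplotlib 3.10.9.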

Additional observations from a re-analysis of the deposited data

How the results depend on the processing

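Counts below are genes with a promoter peak, and medians are given as the ratio of a complex's median signal to that of all genes with a peak under the same rule. With each replicate list alone the members' count ranged from 44 to 48, complex I from 20 to 25, complex II stayed at 4, complex III ranged from 5 to 6, cytochrome c from 0 to 1, complex IV subunits from 6 to 7, assembly factors stayed at 2 and ATP synthase at 5. Median ratios then ranged from 1.61 to 1.86 (complex I), 1.89 to 2.08 (II), 2.22 to 2.48 (III), 1.92 to 2.66 (IV subunits) and 2.26 to 2.45 (ATP synthase), beside 1.66, 2.02, 2.52, 1.97 and 2.36 in the IDR set. Giving each summit only to the nearest start left 14 of 23 complex I genes, 3 of 5 in complex III and 1 of 2 assembly factors. It also left 5 of 7 complex IV subunits and 4 of 5 ATP synthase genes, while complex II stayed at 4. Median ratios under this rule were 1.33 (I), 2.2 (II), 2.98 (III), 3.92 (IV subunits) and 2.93 (ATP synthase). The 4270 peaks of higher signal left 0 cytochrome c genes and gave 1.58 (III) and 1.48 (ATP synthase), where the higher threshold itself raises the median of all genes. Windows from 500 bp upstream gave 1.43 (I), and windows from 2000 bp upstream 0.852 (II), where sdha-2 gains a weak peak. The other causes were not tested. Of 101 alternative values of these results, 84 stayed within the limits set (counts within 1.5 times, medians within 1 SD of the replicates). No paired analysis was possible because there is 1 group. The wide intervals of complexes with few genes limit any ranking, and read depth is unknown.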
